A study of Gallus gallus with 24 samples.

Results

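Mitochondrial ribosomal proteins were examined as a group in abdominal fat of high-growth (HG) and low-growth (LG) chickens. The members were every gene whose symbol in the platform annotation starts with MRPL or MRPS, which gave 37 genes (20 MRPL and 17 MRPS) on 54 spots, out of 6428 named genes on the array. Both lines were bred by divergent selection on body weight from a single meat-type population, Bresse-Pile, and the birds were fed cockerels vaccinated at hatching against Marek's disease virus. Each of 24 spotted cDNA arrays set RNA from 1 HG bird against RNA from 1 LG bird of the same age, with 4 arrays at each of 6 ages, every 2 wk between 1 and 11 wk, so that 24 HG and 24 LG birds were measured. Each line is a single selected population, and the effect of selection cannot be told apart from any other difference between the lines. Per the study's methods, the lines were housed apart up to 3 wk, when LG birds received crushed pellets. Birds sampled at later ages had been reared in this way too. At every age, line therefore cannot be told apart from early pen and feed form. The birds paired on an array were of equal age, so age itself was not compared.

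Mitochondrial ribosomes translate the few proteins that mitochondrial DNA encodes, all of them parts of the respiratory chain and the ATP synthase. Their proteins are encoded in the nucleus, made in the cytosol and imported. Some descend from proteins of the bacterial ribosome, and others were added during the evolution of mitochondria. The small subunit reads the messenger RNA, and the large subunit joins the amino acids. White fat is known for few mitochondria per cell volume, which nonetheless supply citrate and ATP for the synthesis of fatty acids.

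Values below are log2 HG over LG with the median spot of the array set to 0, so that a positive value means higher in HG. The direction is likely rather than certain. It rests on the ratio that the scanning software defines (red over green) and on the dyes in the labels, and if the sign were turned, every higher would be a lower. A gene measured on several spots was given their average. Values of members on single arrays are given with the difference between the dyes removed, unless stated otherwise. Ratios hold no expression level, so neither the tissue label nor the abundance of any member could be checked. In a bulk sample of tissue, fewer cells of a type and less RNA per cell cannot be told apart.

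Of the 37 members, 33 had values on 3 or more arrays at each age and were tested, 32 of them on all 24 arrays. MRPL24 (12 arrays), MRPL33 (19), MRPL38 (17) and MRPL58 (15) did not reach that limit and have no result here. MRPL58 is a peptidyl-tRNA hydrolase of the large subunit that frees stalled ribosomes. The tested genes comprised 15 proteins of the small subunit and 16 of the large subunit. The other two were counted apart: MRPS18A, which lies in the large subunit in spite of its name, and MRPS36, which is now known as a subunit of the 2-oxoglutarate dehydrogenase complex.

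The first comparison asked which members differed between the lines over the whole period, as the mean of the 6 age coefficients (the genotype effect). MRPS15 was the single member that passed the test, and it was higher in HG. Its genotype effect was 0.33 (SE 0.076), a 1.26-fold ratio, with an adjusted p of 0.0257 from limma after Benjamini-Hochberg correction over all 6184 genes. One called member of 33 is 3.03%, against 2.04% of all genes tested (126 of 6184, 57 higher and 69 lower in HG), so the share of members called was near the background. At an unadjusted p under 0.05 there were 2 members, MRPS15 and MRPL27, and 757 genes in all.

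MRPS15 is the counterpart of bacterial S15, a protein that binds ribosomal RNA early in the assembly of the small subunit. After the difference between the dyes was removed, its 4 arrays gave -0.22, -0.21, -0.37 and 0.11 at 1 wk. At 3 wk they gave 0.093, 0.22, 0.81 and 0.13. At 5 wk they gave -0.35, 0.69, 0.45 and 0.16. HG thus stood below LG on 3 of 4 arrays at 1 wk, above it on all arrays at 3 wk, and on both sides at 5 wk. At 7 wk the arrays gave 0.17, 0.33, 1.24 and 0.36. At 9 wk they gave 0.68, 0.38, 0.95 and 0.47. At 11 wk they gave -0.17, 0.60, 0.68 and 0.71. HG was higher on 11 of the last 12 arrays by these values, with replicate 1 of 11 wk as the exception, and on 19 of all 24. Before the dye difference was removed, HG was higher on 17 of 24. By age, these were 1, 2, 2, 4, 4 and 4 of 4 arrays. Replicate 1 of 11 wk was then at 0.13.

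The age coefficients of MRPS15 were -0.17, 0.31, 0.24, 0.53, 0.62 and 0.45 in order of age (SE 0.19 each), and none passed the test at a single age. The smallest adjusted p was 0.362, at 9 wk. The trend of its line difference with age was 0.062 per wk (SE 0.022, limma adjusted p = 0.875), the highest test statistic for a trend among members, and it did not pass. MRPS15 was measured on 1 spot, so no other spot could be set beside it. Its dye coefficient, the difference between arrays with HG in red and arrays with LG in red, was -0.60, which is larger than its line difference. Without that coefficient in the model its effect stayed at 0.33 but the adjusted p became 0.172. Leaving out replicate 2 of 11 wk gave an adjusted p of 0.0511, and each of the other 23 arrays could be left out with the call kept. Without all arrays of 1 and 3 wk, the ages of separate housing, its effect was 0.46 (SE 0.102, limma adjusted p = 0.040). Birds of the later ages had also been housed apart by line before, so early housing remained confounded with line.

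**Figure D1:**
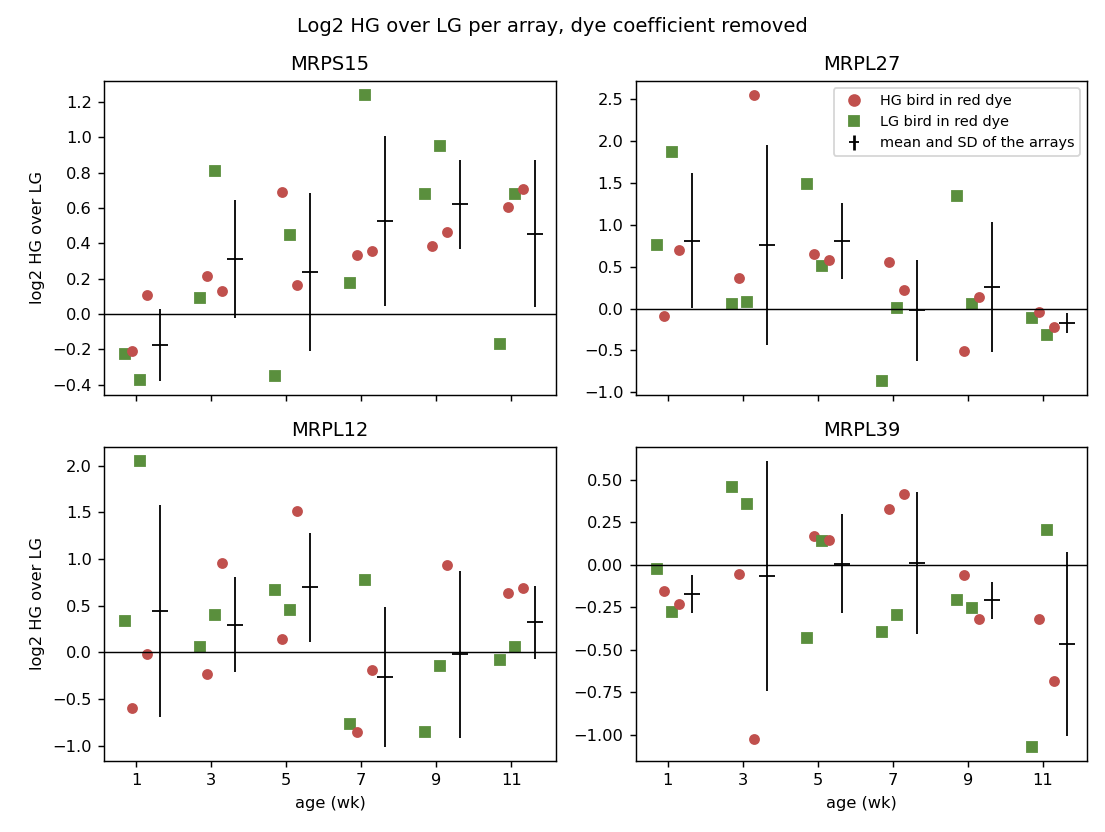
Log2 HG over LG (vertical axis, each panel with its own scale) of MRPS15, MRPL27, MRPL12 and MRPL39 on every array, by age in wk (horizontal axis), with the dye coefficient removed; points mark the dye of the HG bird, and bars give the mean and SD of the 4 arrays of an age (3 for MRPL12 at 9 wk). MRPS15 lay above 0 on all arrays at 3, 7 and 9 wk, and the MRPL27 values reached 2.54 on a single array at 3 wk.

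MRPL27 had the highest genotype effect of any member, 0.41 (SE 0.148), but did not pass the test (limma adjusted p = 0.220). It is the counterpart of bacterial L27, which lies at the centre where peptide bonds are formed. Its arrays gave 0.76, -0.094, 1.87 and 0.70 at 1 wk. They gave 0.052, 0.36, 0.076 and 2.54 at 3 wk, and 1.48, 0.65, 0.51 and 0.58 at 5 wk. HG was therefore higher on 11 of the 12 arrays up to 5 wk, though 3 of them, at 1.48, 1.87 and 2.54, lay far above the rest. At 7 wk the arrays gave -0.86, 0.55, 0.0072 and 0.22. At 9 wk they gave 1.34, -0.51, 0.054 and 0.14. At 11 wk all 4 were negative, between -0.32 and -0.045. The age coefficients were 0.81, 0.76, 0.81, -0.02, 0.26 and -0.17 (SE 0.36 each), and the trend of -0.10 per wk, the lowest among members, did not pass either (SE 0.043, limma adjusted p = 0.92).

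The next members in the order had wide errors. MRPS12, the counterpart of the decoding-centre protein S12, averaged 0.27 (SE 0.175, adjusted p = 0.589). Its values ran between -1.19 and 2.31, and HG was higher on 15 of 24 arrays, or on 12 of 24 before the dye coefficient was removed. MRPL12, the stalk protein that recruits translation factors to the large subunit, averaged 0.25 (SE 0.153, adjusted p = 0.584) over 23 arrays. MRPS2, a small subunit protein with a bacterial counterpart, averaged 0.13 (SE 0.082, adjusted p = 0.573). Its 4 arrays at 1 wk, at 0.54, 0.67, 0.29 and 0.34, were all above 0, while those at later ages fell on both sides.

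At the other end of the order, no member was lower in HG by the test. MRPL39, a large subunit protein without a bacterial counterpart, averaged -0.15 (SE 0.085, adjusted p = 0.528). Its arrays gave -1.07, -0.32, 0.21 and -0.68 at 11 wk, the age with its lowest coefficient. MRPL51, also specific to mitochondria, averaged -0.096 (SE 0.122). MRPL22, whose bacterial counterpart lines the exit tunnel of the growing peptide, averaged -0.074 (SE 0.050), and its 4 values at 9 wk lay between -0.31 and -0.14. MRPL10, which anchors the MRPL12 stalk, averaged -0.072 (SE 0.090). MRPS23, of the small subunit, averaged -0.058 (SE 0.076). Adjusted p-values of these last 4 ranged between 0.617 and 0.805.

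**Figure D2:**
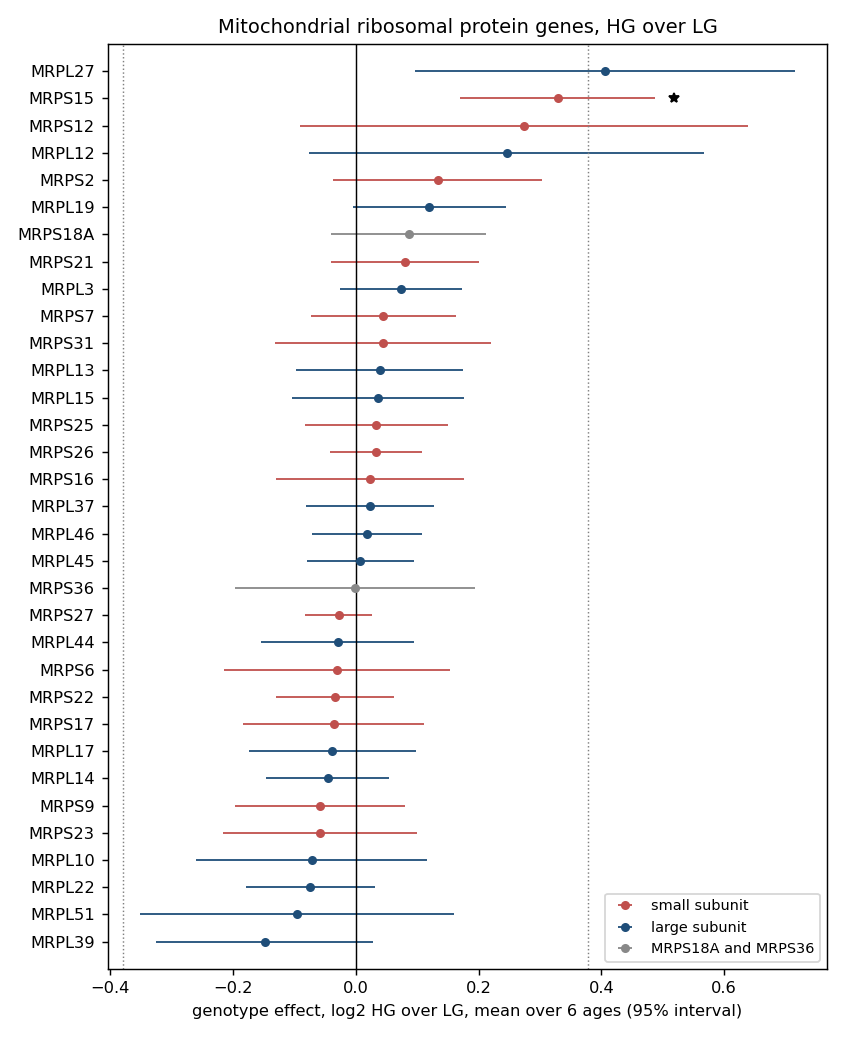
Genotype effect of the 33 tested members (horizontal axis, log2 HG over LG averaged over 6 ages) with 95% intervals from the limma fit, ordered by size and coloured by subunit; dotted lines stand at a 1.3-fold ratio in either direction and the star marks MRPS15. The intervals of 29 members lie between the dotted lines, and MRPL27, MRPS15, MRPS12 and MRPL12 lead the order.

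The intervals show how large a difference in the measured ratio these arrays still allow. They do not include the disagreement between spots of 1 gene. The ratio of RNA between the birds may be larger than the ratio measured on an array. For 29 of the 33 members the 95% interval of the genotype effect (not adjusted for the number of genes) lay wholly within a 1.3-fold ratio in either direction, and for 31 within 1.5-fold. The exceptions to the narrower bound were MRPL27, MRPS15, MRPS12 and MRPL12. The narrowest interval was that of MRPS27, an RNA-binding protein of the small subunit, at -0.082 to 0.027. The residual SD of members ranged from 0.0935 for MRPS27 to 0.901 for MRPS12, with a median of 0.323, against 0.33 over all genes.

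The members' signs and sizes lay close to those of all genes on the array. Of the 33, 19 were positive and 14 negative, that is 57.6% positive, against 57.3% of all genes tested. Their median genotype effect was 0.023, against 0.015 for all genes. The median absolute line difference was 0.045 for members and 0.0597 for all genes. No member kept 1 sign at all 6 ages. The dye coefficient was larger than the line difference in absolute size for 30 of 33 members (from -0.678 to 0.708, median absolute value 0.356), against a median absolute value of 0.321 for all genes.

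Both subunits held members of either sign. In the small subunit 9 of 15 tested proteins were positive, with a median of 0.033 and MRPS15 and MRPS23 as extremes. In the large subunit 9 of 16 were positive, with a median of 0.013 and MRPL27 and MRPL39 as extremes. MRPS18A averaged 0.086 (SE 0.060) and MRPS36 -0.00098 (SE 0.093). Members with a bacterial counterpart had a median of 0.039 (12 of 19 positive), and those without one had a median of -0.010 (6 of 12 positive). The highest of the proteins without a counterpart was MRPS31, at 0.044. These splits are descriptions of the order above and were not tested.

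The line difference was next read at each age on 4 arrays, with a median SE of 0.159 for members. That SE rests on 1 estimate of the spread shared by all 24 arrays, so it is the same at each age. The spread of all spots on an array (median absolute deviation) was 0.40 to 0.51 at 9 wk and 0.207 to 0.325 at 3 wk. Tests at single ages do not allow for such a difference. No member passed at any age, and limma called 0% of all genes at 1 wk, 0% at 3 wk, 0.372% at 5 wk, 0.226% at 7 wk, 0.0323% at 9 wk and 0.0647% at 11 wk. At an unadjusted p under 0.05 there were 3, 2, 1, 2, 5 and 4 of 33 members in order of age, against 418, 203, 451, 439, 462 and 383 of all 6184 genes. Members positive at each age numbered 17, 17, 23, 21, 14 and 14 of 33. Their medians were 0.0030, 0.012, 0.059, 0.014, -0.063 and -0.020, against 0.0040, -0.0045, 0.032, 0.031, 0.019 and 0.012 for all genes. More members were positive than negative at 5 and 7 wk, as were all genes (59.9% and 60.6% positive), and fewer at 9 and 11 wk (42.4% at both ages, against 54.7% and 53.4% of all genes). These shares were not tested.

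The median over members on each single array shows the spread behind these values. At 5 wk the 4 arrays had medians of 0.12, 0.042, 0.075 and 0.074, all above 0. At 9 wk they had -0.0093, -0.035, -0.11 and -0.12, all below 0. At each of the other ages arrays fell on both sides, as at 11 wk with 0.030, -0.11, 0.065 and -0.067. These medians depended on the scaling. In the values as deposited, without centring, the median at 5 wk was -0.0023 and that at 9 wk was 0.029, both of the opposite sign, and that at 3 wk was 0.11. At 5 wk it was 0.013 once medians of printed blocks, rows and columns were taken out.

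**Figure D3:**
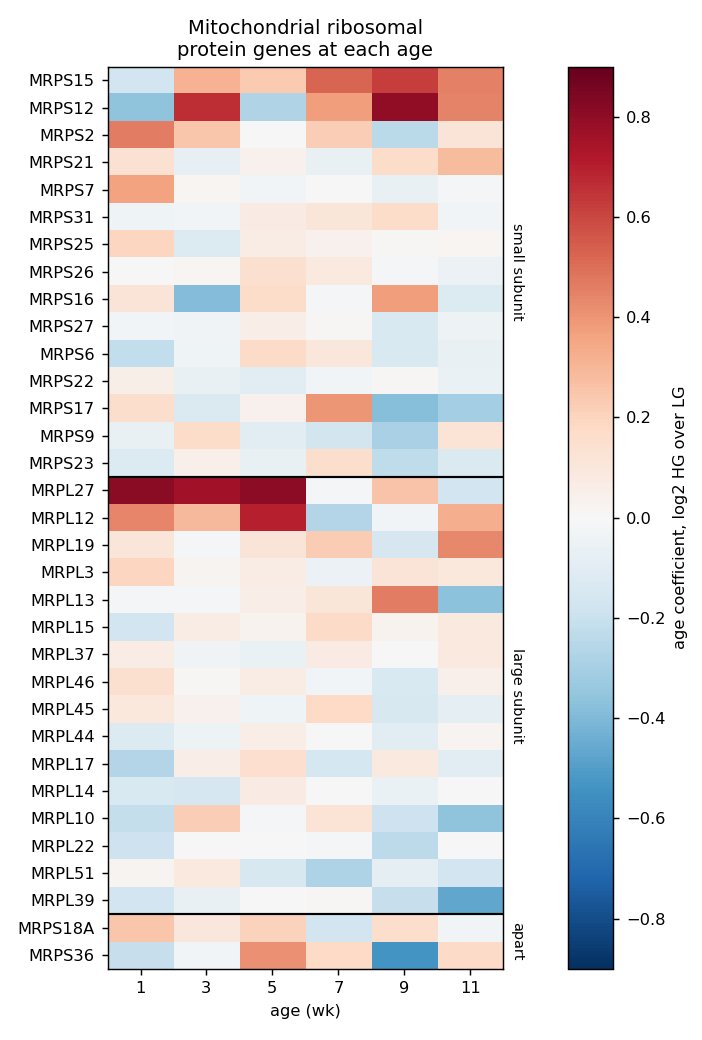
Age coefficient of the line difference (colour, log2 HG over LG, red for higher in HG) for the 33 tested members (rows, by subunit and then by genotype effect) at 6 ages (columns, wk). MRPL27 is darkest red from 1 to 5 wk, MRPS12 at 3 and 9 wk and MRPS36 darkest blue at 9 wk, and most other cells are pale.

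Different members led at different ages by test statistic. At 1 wk the highest was MRPS7, which binds RNA in the head of the small subunit, at 0.36 (SE 0.138, limma adjusted p = 0.652), with arrays of 0.074, 1.01, -0.15 and 0.51. The lowest was MRPL17, of the large subunit, at -0.26 (SE 0.159). Its spots disagreed at this age, at -0.91 (SE 0.74), 0.107, -0.28 and 0.03. At 3 wk MRPS16, of the small subunit, was lowest at -0.39 (SE 0.179) with 3 of 4 arrays negative. The highest then and at 5 wk was MRPL27. At 5 wk MRPS22, a small subunit protein specific to mitochondria, was lowest at -0.11, a value within its SE of 0.113.

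From 7 wk the order by test statistic, used throughout this comparison of ages, changed again. MRPS15 was highest at 7 and 9 wk, and MRPS18A was lowest at 7 wk at -0.17 (SE 0.147). However, the coefficients of MRPL51 (-0.28) and MRPL12 (-0.26) at 7 wk and of MRPS12 (0.80) at 9 wk were larger in size. Spots of MRPS18A disagreed at 7 wk, at -0.41 (SE 0.26) and 0.0605. So did those of MRPL51, at 0.20, -0.98 and -0.0605. MRPS36 was lowest at 9 wk, at -0.54 (SE 0.229, limma adjusted p = 0.579). With its dye coefficient of 0.708 removed, its arrays at 9 wk gave -0.97, -0.25, -0.60 and -0.34, all below 0. Its 4 arrays at 5 wk then lay between 0.23 and 0.70. Before that removal HG was higher on 2 of 4 arrays at 9 wk and on 3 of 4 at 5 wk. MRPL19, a large subunit protein that contacts the small subunit in bacteria, was highest at 11 wk. Its coefficient was 0.43 (SE 0.146, limma adjusted p = 0.563). With the dye coefficient removed, its 4 arrays lay between 0.086 and 1.02, and before that removal replicate 3 was at -0.255. Its spots disagreed at this age, with 0.85 on one and 0.015 on the other. MRPL13 was lowest at 11 wk at -0.37 (SE 0.159) and stood at 0.46 at 9 wk. Of its 3 spots, 1 gave 1.36 at 9 wk and -1.22 at 11 wk. The others gave 0.0094 and 0.017 at 9 wk and 0.038 and 0.0665 at 11 wk, so the swing came from 1 spot. The spot at 0.017 and 0.0665 carried the same clone as the spot that swung. Coefficients beyond a 1.5-fold ratio were found for 1, 2, 2, 0, 2 and 0 members in order of age, against 5.13% to 6.16% of all genes at each age.

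Whether the line difference changed with age was asked by the interaction of genotype and age and by its linear trend. No member passed either test, and limma called 0.0323% of all genes for the interaction and 0% for the trend. The smallest interaction p-values of members belonged to MRPS17 (unadjusted p = 0.0386), MRPL13 (0.0448) and MRPS15 (0.083), all with a limma adjusted p of 1.0. For MRPL13 the swing between 9 and 11 wk came from 1 of its 3 spots. The bacterial counterpart of MRPS17 binds RNA early in small subunit assembly. With the dye coefficient removed, MRPS17 lay between 0.14 and 0.72 on the 4 arrays at 7 wk. On those at 11 wk it lay between -0.75 and -0.052. Before that removal HG was higher on 3 of 4 arrays at 7 wk and on 1 of 4 at 11 wk. Trends were negative for 19 of 33 members, with a median of -0.0047 per wk, against 0.00052 for all genes, and 2 of 33 members had an unadjusted p under 0.05, against 307 of 6184 genes.

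Of the members, 10 were tested on more than 1 spot. In 7 of the 10 genes the spots differed in the sign of the genotype effect: MRPL13, MRPL17, MRPL19, MRPL51, MRPS17, MRPS26 and MRPS6. MRPL19 showed the widest gap, with 0.28 on one spot and -0.042 on the other. MRPL17 had 4 spots, at 0.053, 0.033, -0.22 and 0.0014, of which those at 0.033 and -0.22 carried the same clone. Both spots of MRPL10, of MRPS18A and of MRPS7 shared a sign.

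Spots of 1 gene did not vary together across arrays either. Over the 21 pairs of spots, the correlation of residuals (after age and dye) averaged -0.0943, and 9 pairs were positive. It ranged between -0.789 for a pair of MRPS26 spots and 0.534 for the pair of MRPS7 spots, over 21 to 24 shared arrays. The values of single-spot members, MRPS15 among them, had no such comparison.

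**Figure D4:**
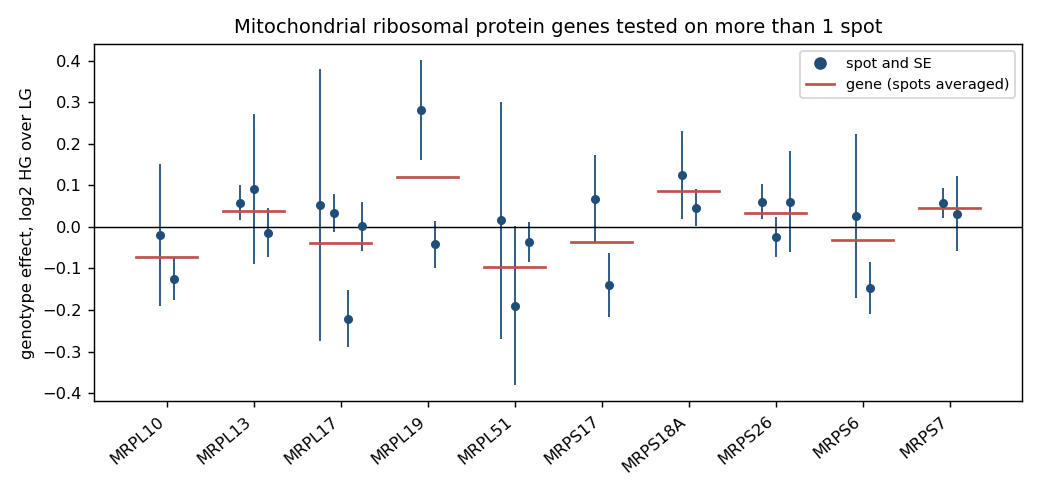
Genotype effect of every tested spot (points with SE, log2 HG over LG) of the 10 members tested on more than 1 spot, with the value of the averaged gene as a red line. Spots lie on both sides of 0 in 7 genes, with the widest gap in MRPL19 (0.28 and -0.042).

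The spot names carried a limit of their own. The last 2 numbers of a spot's identifier were read in exchanged order between the annotation and the values, an order found from the data. In that order residuals of 44 cytosolic ribosomal protein genes correlated with a mean r of 0.226, against 0.0054 for the 39 with complete values in the order as given. The members showed no such contrast, with 0.0027 over 32 genes in the exchanged order and -0.0083 over 29 in the order as given. Repeat spots of 1 gene, each with its mean taken out, correlated at 0.068 on average over named genes in the exchanged order. In the order as given that average was 0.003. For repeat spots of members the averages were -0.114 exchanged and -0.015 as given, which did not favour the exchanged order.

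How members varied together from array to array was read from their residuals. The mean correlation of residuals over the 496 pairs of members with complete values was 0.0027, against 0.0041 over all pairs of 5664 genes and 0.226 over 946 pairs of cytosolic ribosomal protein genes. It was 0.015 within the small subunit and -0.037 within the large subunit. Single pairs reached both ends, as MRPS21 with MRPS25 at 0.804 and MRPS22 with MRPS26 at -0.824. All these correlations are across the same 24 arrays, which genes share together with their background and print layout, and are given as descriptions. Between members and the nuclear genes of oxidative phosphorylation, the mean was 0.011 over 1216 pairs. The fit has 1 dye coefficient for all ages, and some values still alternated with the dye after its removal. At 9 wk MRPS22 gave 0.23, -0.30, 0.34 and -0.25, and MRPS25 gave 0.20, -0.42, 0.52 and -0.27. MRPS26 gave -0.14, 0.14, -0.25 and 0.21. The part of this alternation in the correlations was not tested.

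Few members lie near each other in the genome. The 37 genes are spread over 18 chromosomes of the GRCg7b annotation, which was used for the order of genes alone. MRPL14 and MRPS18A have 2 protein-coding genes between them, and their genotype effects were -0.046 and 0.086. MRPL10 and MRPL45, with 5 genes between them, had -0.072 and 0.0070.

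Genes that work with mitochondrial ribosomes were read from lists in the same fit. The 3 tested ribosomal proteins with symbols other than MRPL and MRPS were all positive, led by DAP3, a GTP-binding protein of the small subunit, at 0.16 (SE 0.067, adjusted p = 0.303). Of 6 translation factors, 3 were positive, between GFM1 (elongation factor G) at -0.15 and C12orf65, a release factor relative, at 0.28. Of 9 mitochondrial aminoacyl-tRNA synthetases, 5 were positive, between IARS2 at -0.10 and NARS2 at 0.12. Of 8 assembly and RNA modification factors, 4 were positive, between MALSU1 at -0.11 (SE 0.031, adjusted p = 0.091) and MTG1 at 0.15. None of these genes passed the test for the genotype effect.

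The genes that keep and transcribe mitochondrial DNA and the regulators of mitochondrial number had members of either sign. Of 4 maintenance and transcription genes, TFAM, which packages the DNA, was lowest at -0.14 (SE 0.088) and C10orf2, the helicase, highest at 0.062. Of 4 regulators, PPARGC1B was lowest at -0.15 (SE 0.081) and GABPA highest at 0.081, and none of these 8 genes passed. Of 11 import genes and chaperones, HSPD1, the matrix chaperonin, was lower in HG at -0.32 (SE 0.047, limma adjusted p = 0.00071) with HG higher on 4 of 24 arrays. TOMM20, a receptor of the outer membrane, was highest at 0.25 (SE 0.109, adjusted p = 0.344).

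Nuclear oxidative phosphorylation genes, whose proteins the mitochondrial ribosome does not make, had a median of 0.039 (24 of 40 positive). UQCRB, a subunit of complex III, was the one that passed, at 0.59 (SE 0.068, limma adjusted p = 4.16e-05), with HG higher on 23 of 24 arrays. NDUFS3, of complex I, was lowest at -0.13 (SE 0.071). The cytosolic ribosomal protein genes, a list taken by symbol alone, were split 22 to 22 with a median of 0.0019. They lay between RPL7L1, an RPL7-like gene that the choice by symbol let in, at -0.23 and RPL23 at 0.23, and none passed. Their medians swung more with age than those of the members: 0.14, -0.045, 0.20, -0.052, -0.16 and -0.12 in order of age. Trends were negative for 41 of 44 cytosolic genes, against 19 of 33 members, and no trend of either kind passed. The difference between the lists was not tested.

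**Figure D5:**
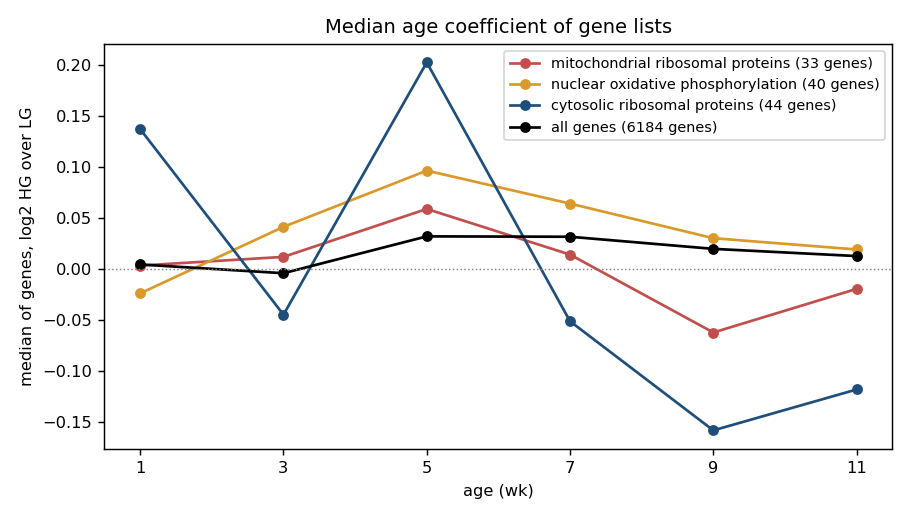
Median age coefficient (vertical axis, log2 HG over LG) at 6 ages (horizontal axis, wk) for the 33 mitochondrial ribosomal protein genes, 40 nuclear oxidative phosphorylation genes, 44 cytosolic ribosomal protein genes and all 6184 genes. The members stay between -0.063 and 0.059, while the cytosolic ribosomal proteins reach 0.20 at 5 wk and -0.16 at 9 wk.

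Single markers of other cells passed the test over the same arrays, 1 in each of the hepatocyte, smooth muscle and skeletal muscle lists. All 11 tested markers of hepatocytes and plasma proteins were negative, with a median of -0.47, and APOA1 passed at -0.25 (SE 0.061, limma adjusted p = 0.035). All 5 smooth muscle markers were negative, with a median of -0.24, and MYL9 passed at -0.52 (SE 0.122, adjusted p = 0.030). Of 8 skeletal muscle markers 7 were positive, and CASQ2 passed at 0.24 (SE 0.048, adjusted p = 0.0086). Before the dye coefficient was removed, HG was higher on 6 of 24 arrays for APOA1, 7 for MYL9 and 13 for CASQ2. Adipocyte markers were positive in 5 of 6, with a median of 0.075, but in 2 of 6 at 5 wk, with a median of -0.32 at that age, when the members' array medians were all above 0. Leukocyte, endothelial and erythrocyte markers had medians of -0.10, -0.032 and 0.038, and none passed. The part of these differences in the values of the members was not tested.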

How the data were processed

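RNA was labelled with a red or a green Alexa Fluor dye and hybridised to Del-Mar 14 K spotted arrays, with HG in red on 12 of 24. The deposited values were log2 ratios per spot, on 19200 spots. The study's methods describe LOWESS normalization, but array medians from -0.336 to 0.32 show that the deposited log2 values had not been centred, and intensities were not used here. Missing ratios (4.38%) and ratios at the software ceiling of 16.61 (0.48%) were set to missing, which left 17380 to 18529 values per array.

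Arrays were centred on the median and turned to HG over LG. Spots measured on 3 arrays of every age were averaged by symbol and fitted with limma 3.58.1 (R 4.3.3), with 6 age coefficients and 1 dye coefficient. The interaction was a moderated F test. The adjusted p threshold was 0.05, by the Benjamini-Hochberg method over 6184 genes. Precision rests on the number of arrays. Birds of different arrays were separate animals. The code of the fit was also run on simulated data with independent normal errors, which does not test the calls made here.

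Named were members past the threshold, the 5 highest and the 5 lowest by genotype effect, the extremes by test statistic at each age and for the trend, the 3 smallest interaction p-values and, of each list, its extremes and called genes. Members and lists were chosen with earlier results of these data known. No sequence is shown, since none was found in the files used here. The alternatives were 15 settings and the leaving out of each array.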

Additional observations from a re-analysis of the deposited data

Results flagged for a closer look

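Among the 19 named members, 113 groups of 4 arrays were checked for an array far from the rest, and 9 had one (by Dixon's 95% limit on its gap over the range). Chance flags about 1 in 20 groups of genes not chosen by their values. The named members were chosen by theirs, so the count of 9 cannot be set against that rate. The arrays were replicate 1 of MRPS15 at 11 wk (-0.169, the others between 0.602 and 0.707), replicate 4 of MRPL27 at 3 wk (2.54) and replicate 1 of MRPL27 at 5 wk (1.48). With the dye coefficient removed, replicate 4 at 3 wk also stood apart for MRPS12 (2.31) and MRPL51 (0.518). Before that removal the MRPS12 arrays gave -0.31, 0.33, 0.070 and 2.56. The MRPL51 arrays gave 0.17, -0.33, 0.27 and 0.26, so that replicate 4 lay with replicates 1 and 3. On replicate 4 at 3 wk, 4 members and 12.3% of all genes lay beyond a 2-fold ratio, the highest share of any array. The residuals of MRPL27 and MRPS12 correlated at 0.387 over the 24 arrays. Single arrays also stood apart for MRPL39 at 5 wk (-0.431), MRPL10 at 11 wk (-1.49), MRPS7 at 3 wk (0.278) and MRPL17 at 7 wk (0.247). Before the dye coefficient was removed, the MRPL39 arrays gave -0.71, 0.45, -0.14 and 0.43. Those of MRPL10 gave -0.23, 0.20, -1.74 and 0.33. Those of MRPS7 gave 0.010, 0.17, 0.059 and -0.16, and those of MRPL17 gave -0.44, 0.35, -0.38 and -0.18.

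The same named members were compared between ages with the dye coefficient removed. In 5 cases all arrays of one age lay on the opposite side of 0 to all arrays of another. Of these cases, those of MRPL27 also held before that removal. Before it, HG was higher on 3 of 4 arrays for MRPS12 at 11 wk and on 2 of 4 for MRPS36 at 9 wk. For MRPS17 the counts were 3 of 4 at 7 wk and 1 of 4 at 11 wk. MRPL27 was above 0 at 3 and 5 wk and below it at 11 wk, with differences of 0.93 and 0.978 on the log2 scale. MRPS12 was below 0 at 1 wk and above it at 11 wk (difference 0.807, later minus earlier), where its lowest array was at 0.00094. MRPS36 was above 0 at 5 wk and below it at 9 wk (difference 0.953, earlier minus later), and MRPS17 was above 0 at 7 wk and below it at 11 wk (difference 0.705, earlier minus later). These differences between single ages were not tested, and the interaction of genotype and age had a limma adjusted p of 1.0 for each of the 4 genes.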

How the results depend on the processing

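MRPS15 was called under 14 of the 15 other settings, and no other member was called under any. Without the dye coefficient 0 members and 54 genes in all were called. Leaving out 1 array gave 0 to 1 called members and 95 to 152 called genes, with the effect of MRPS15 between 0.29 and 0.37. Called genes numbered 200 with array weights and 418 of 16895 spots when spots were tested one by one, against 126. At single ages, for the trend and for the interaction, 0 members were called under every setting run. Of the 10 members at the ends of the order, no value of the gene changed sign. With spots tested one by one, 1 spot of MRPL51 was positive at 0.016, against -0.096 for the gene. The median over members moved by more than its spread between arrays in 6 cases. In values as deposited it was 0.074 at 1 wk, 0.11 at 3 wk, -0.0023 at 5 wk and 0.029 at 9 wk. It was 0.013 at 5 wk with medians of block, row and column removed, a setting chosen after seeing the data. With array weights the trend median was -0.00979 per wk. The cause of these shifts was not tested. With a replicate block, MRPS15 had an adjusted p of 0.0092, 106 genes were called and no member's call changed. Arrays share only a number across ages: residuals of same-numbered arrays correlated at -0.0713 on average, against -0.0949 for the other number of the same dye, and 15 of 24 arrays were closer to their own number. For MRPL27, MRPS12 and MRPL12 the 95% intervals reached past 1.3-fold in HG without passing the test, and dim spots could not be identified without intensities.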
